A study of Mus musculus with 5 samples.

Results

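Tubule epithelial cells were looked for among the barcodes of a CD4 T cell sort from injured mouse kidneys. A barcode was kept when it held 500 or more genes and under 10% of its unique molecular identifiers (UMIs, counted transcript molecules) in mitochondrial genes. A kept barcode was a member when it had no UMI of Cd3e, a T cell receptor subunit, and at least 1 UMI of 3 or more of 7 tubule genes: Lrp2, Cubn, Slc34a1, Miox, Pkhd1, Cdh6 and Dcdc2a. These values chose the members, so the levels of the 7 genes and of Cd3e are given as a description only. The rule found 68 members among 38417 kept barcodes, of 40778 barcodes in all.

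The mice were 10 weeks old, and all had undergone ischemia-reperfusion injury of 1 kidney, in which blood flow is stopped and restored. The 2 control libraries came from Il1rl1fl/fl mice, whose floxed Il1rl1 gene (ST2, the receptor for IL-33) was left intact. In the 3 knockout libraries the mice were Il1rl1fl/fl Foxp3YFP-Cre: there the Cre recombinase is driven by Foxp3, which marks regulatory T cells. Tubule cells are therefore not the cells that this Cre targets, and there was no uninjured group. Kidneys were digested with collagenase, and live CD4 T cells were sorted with antibodies to CD45, TCRβ, CD4, CD25 and CD127 and run on 10x 3′ single-cell chips. The labels do not say how many mice went into a library.

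The proximal tubule reclaims most of what the glomerulus filters. Its brush border carries transporters for phosphate, glucose and amino acids and the endocytic receptors megalin (Lrp2) and cubilin (Cubn), and its cells burn fatty acids and make glucose. After ischemia, surviving proximal cells are known to lose these functions for a time, to make injury proteins such as KIM-1 (Havcr1), NGAL (Lcn2) and osteopontin (Spp1), and to divide. More distal segments carry other markers, such as uromodulin (Umod) in the thick ascending limb and the water channel Aqp2 in principal cells of the collecting duct.

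Library totals ran from 31104939 to 152275841 UMIs, and the median kept barcode held from 3786 UMIs in control replicate 2 to 13534 in control replicate 1. Members held 196045 and 83934 UMIs in the controls and 146555, 316852 and 306928 in knockout replicates 1, 2 and 3. A few deep members dominated these sums: the deepest member gave 63.6% of the member UMIs in control replicate 1, 41.0% in control replicate 2, 43.1% in knockout replicate 1, 22.3% in knockout replicate 2 and 22.7% in knockout replicate 3. Between 2 and 39 barcode sequences were shared by each pair of libraries, and none of them belonged to a member.

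Markers of the sorted cells were near 0 in the members. Of 9 T cell markers, 8 had a UMI in some member, their summed level ran from 0 to 81.6 CPM in controls (member UMIs scaled to the same total in each library) and from 0 to 9.47 CPM in knockouts, and 11 of 68 members had any. Cd4 was found in 3 members and Cd3g in 0, against 77.7% to 91.6% and 86.9% to 93.0% of Cd3e-positive cells across libraries. Ptprc, which encodes the CD45 of the sort gate, had a UMI in 3 and 1 control members and in 1, 5 and 0 members of the knockout libraries. At least 1 of 8 macrophage markers was present in 13 members, with a summed level of 0 to 40.8 CPM in controls and 13.0 to 27.3 CPM in knockouts. Natural killer cell and red cell markers were at 0 in every library. Il1rl1 itself had 0 UMIs in the members.

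Members were rare in every library, and the 3 knockout libraries had the higher shares. Control replicate 1 had 10 members of 9485 kept barcodes (0.105%, 95% exact binomial interval 0.0506% to 0.194%), and control replicate 2 had 8 of 9025 (0.0886%, 0.0383% to 0.175%). Knockout replicate 1 had 7 of 4241 (0.165%, 0.0664% to 0.340%), replicate 2 had 29 of 10320 (0.281%, 0.188% to 0.403%) and replicate 3 had 14 of 5346 (0.262%, 0.143% to 0.439%). The 3 knockout shares lay above both control shares, and the mean share was 0.236% ± 0.0622 (SD, n = 3) in knockouts against 0.0970% ± 0.0119 (SD, n = 2) in controls. The two-sided exact permutation p was 0.2, the smallest that 10 arrangements of 5 libraries can give. Intervals and limits on counts cover counting error only.

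**Figure D1:**
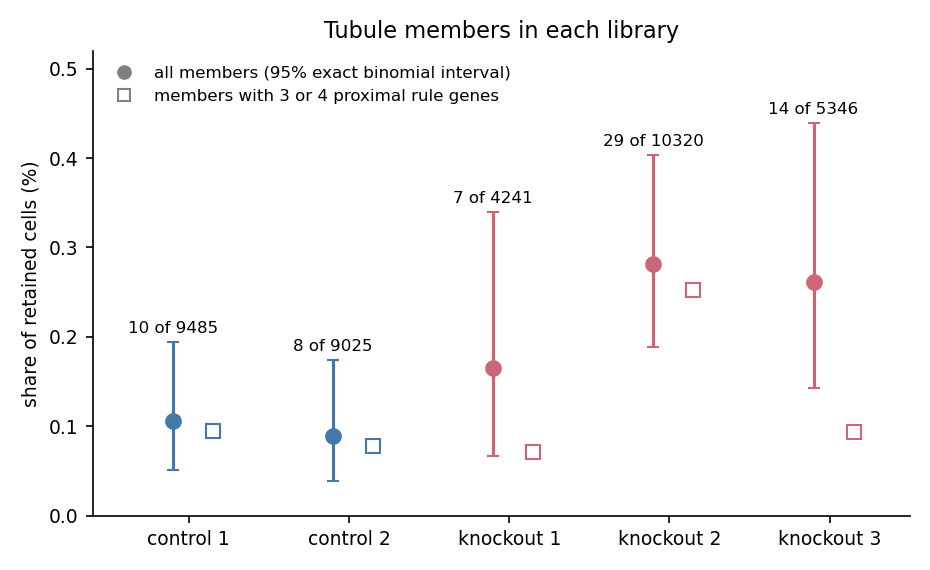
Share of kept barcodes that were tubule members (y axis, percent) in each of the 5 libraries. Filled circles are all members with their 95% exact binomial interval and open squares are members with 3 or 4 of the proximal genes Lrp2, Cubn, Slc34a1 and Miox. All 3 circles of the knockouts lie above those of the controls, while the squares of knockout replicates 1 and 3 lie at control level.

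That separation was not seen in every choice of members. When only the 50 members with at least 3 of the 4 proximal genes Lrp2, Cubn, Slc34a1 and Miox were counted, the shares were 0.0949% and 0.0776% in controls and 0.0707%, 0.252% and 0.0935% in knockouts, so the groups overlapped (exact permutation p = 1). They also overlapped without the 9 members of knockout replicate 3 that had none of these 4 genes (exact permutation p = 0.4), and when every kept barcode was thinned to 2000 UMIs before the rule was applied (exact permutation p = 0.6). The mitochondrial filter removed a further 16.7% and 42.9% of barcodes with 3 or more tubule genes in controls and 50%, 35.6% and 36.4% in knockouts.

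Members fell into kinds by which of the 7 genes they carried. At least 3 proximal genes were found in 9 and 7 control members and in 3, 26 and 5 members of knockout replicates 1, 2 and 3. Another 6 members had 1 or 2 proximal genes and 12 had none, of which 9 came from knockout replicate 3. Proximal members supplied 98.0% and 97.6% of the member UMIs in controls but 10.5%, 78.1% and 47.4% in knockouts. A level summed over a library's members therefore weighs different kinds of member in the 2 groups, and fewer cells of a kind cannot be told apart from less RNA per cell.

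**Figure D2:**
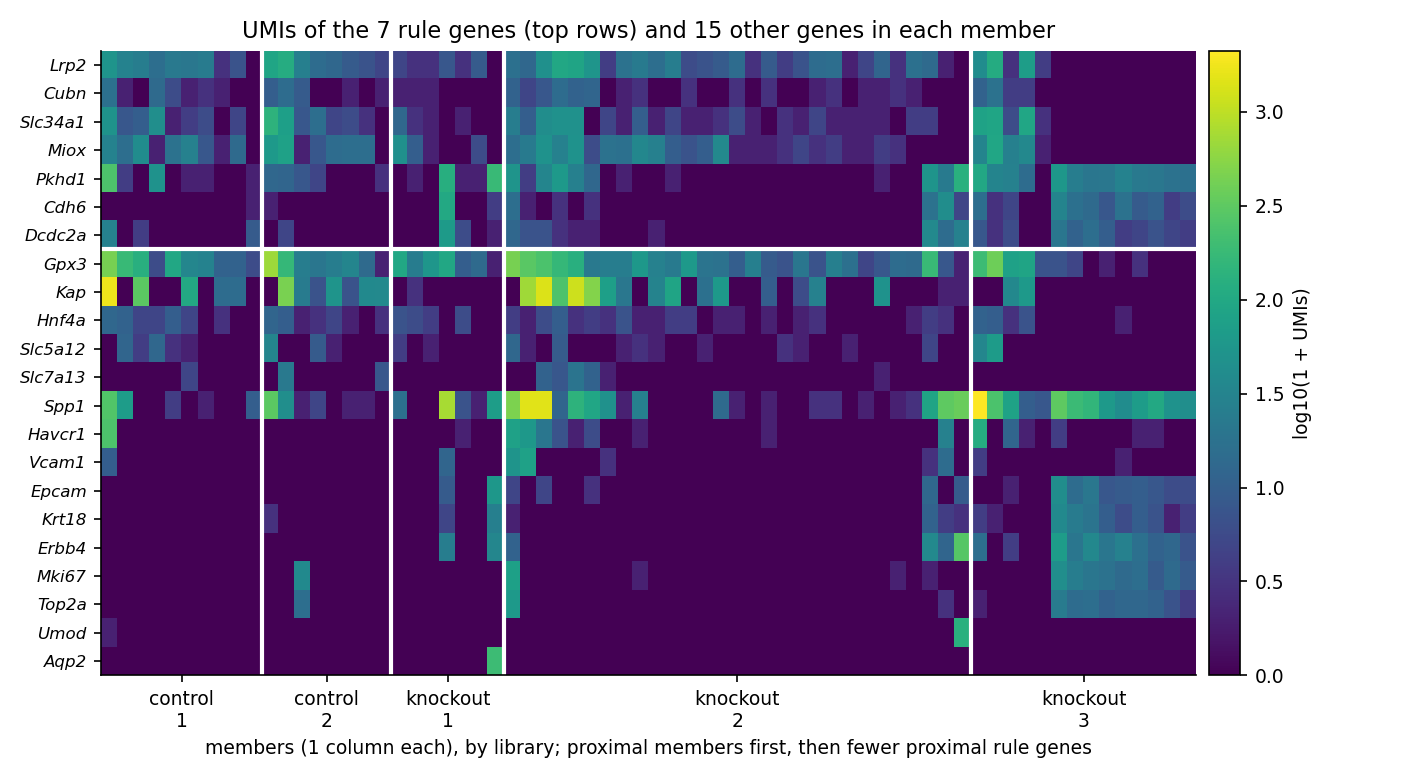
UMIs of the 7 rule genes (top rows) and 15 other genes (lower rows) in each of the 68 members, 1 column a member, grouped by library; colour is log10(1 + UMIs). The block of 9 columns at the right, in knockout replicate 3, has Pkhd1, Cdh6, Dcdc2a, Epcam, Erbb4, Mki67 and Top2a but lacks Lrp2, Cubn, Slc34a1 and Miox.

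Of the markers given for these cells, Lrp2 (megalin) was found in 56 members, Miox (an inositol-degrading oxygenase of the proximal tubule) in 50, Slc34a1 (a sodium-phosphate cotransporter) in 48 and Pkhd1 (fibrocystin, a cilium protein of tubule and duct cells) in 41. In Cd3e-positive cells of the same libraries, Lrp2 had a UMI in 0.0582% to 0.231%, Miox in 0.105% to 0.156% and Slc34a1 in 0.0642% to 0.184%. At the threshold, 31 kept Cd3e-negative barcodes had exactly 2 of the genes, 29 had exactly 3 and 39 had 4 or more. Gpx3, a plasma glutathione peroxidase made by the proximal tubule, was found in 26 of the 31 just outside and in 24 of the 29 just inside. A further 10 barcodes met the gene count but carried Cd3e.

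Pax8, a transcription factor of the whole nephron and not used by the rule, had UMIs in 36 members, against at most 0.0360% of Cd3e-positive cells. Cdh16, the kidney-specific cadherin, was found in 37 members, and Krt8, a keratin of simple epithelia, in 34. 

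The 50 proximal members carried the wider program of that segment. Gpx3, a secreted glutathione peroxidase, was found in 50 of 50. Fxyd2, a subunit that tunes the sodium pump, was found in 49, Akr1c21 (a steroid-reducing enzyme) and Acsm2 (a medium-chain acyl-CoA synthetase) in 48 each, Fbp1 (fructose bisphosphatase of gluconeogenesis) in 46, Pdzk1 (a scaffold for brush border transporters) in 45 and Slc27a2 (a fatty acid transporter) in 44. Hnf4a, the transcription factor that maintains proximal identity, was found in 38. Each of these was found in under 1.5% of Cd3e-positive cells in every library, although those cells had medians of 4699 to 14514 UMIs and the proximal members a median of 3799.5. Gpx3 averaged 7953 CPM per proximal member.

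**Figure D3:**
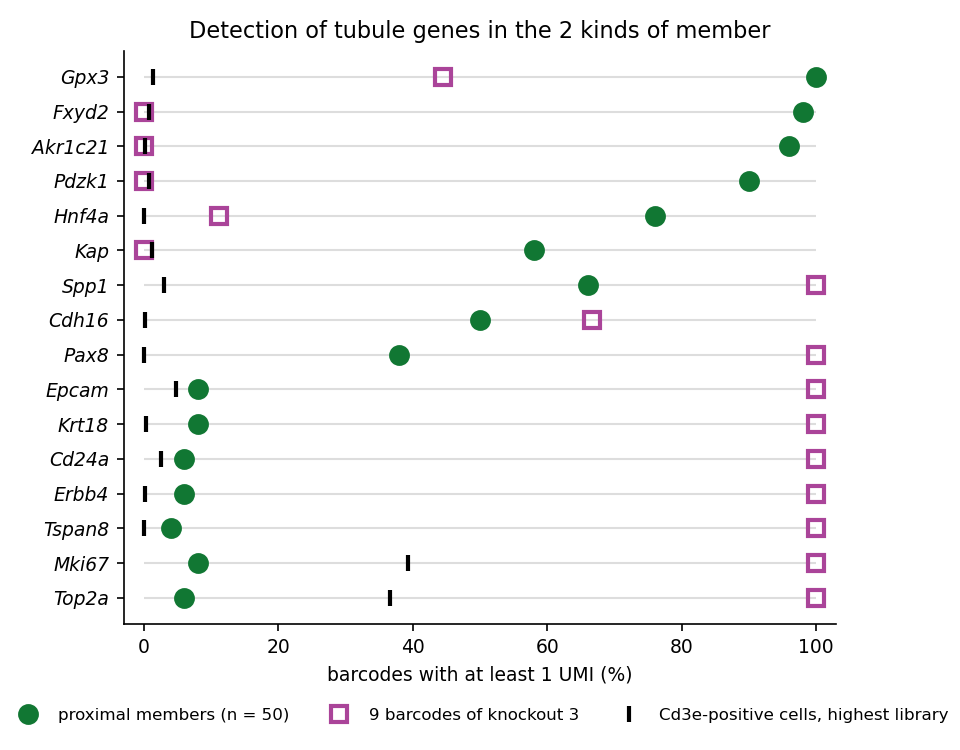
Percentage of barcodes with at least 1 UMI (x axis) of 16 genes. Filled circles are the 50 proximal members and open squares the 9 barcodes of knockout replicate 3 without proximal rule genes. Bars are Cd3e-positive cells of the library with the highest share. Gpx3 and Fxyd2 mark the proximal members, while Epcam, Krt18, Erbb4, Tspan8, Mki67 and Top2a were present in all 9 of the other barcodes.

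Markers of the early, middle and late proximal tubule were all present. Among early-segment genes, the glucose transporter Slc5a2 (SGLT2) was found in 21 proximal members and the lactate transporter Slc5a12 in 22. The organic anion transporter Slc22a6 (OAT1) of the middle segment was found in 21, and the late-segment amino acid transporter Slc7a13 in 8. Slc5a2 stood at 66.3 and 417 CPM in controls and 13.6, 101 and 159.6 CPM in knockouts, with 94.3% of the UMIs of control replicate 2 from 1 member. Slc7a13 was at 20.4 and 333.6 CPM in controls, 148 CPM in knockout replicate 2 and 0 in the other knockout libraries. For Slc5a2, Slc5a12, Slc22a6 and Slc7a13 the groups overlapped.

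Kap, the androgen-regulated protein of the proximal tubule, separated libraries rather than groups. It stood at 11171 and 7351 CPM in controls, at 13.6 CPM in knockout replicate 1, 13959 CPM in replicate 2 and 309.5 CPM in replicate 3. Members with Kap numbered 5 and 7 in controls and 1, 17 and 2 in knockouts. Xist was at 0 and the Y-linked Ddx3y was found in the members of all 5 libraries. Summed over 5 male-biased genes of the proximal tubule, the level ran from 8816 to 11865 CPM in controls and from 40.9 to 14565 CPM in knockouts.

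The 9 members of knockout replicate 3 with none of the proximal rule genes Lrp2, Cubn, Slc34a1 and Miox had a profile of their own. The genes highest in them relative to the proximal members, by the ratio of mean CPM with a pseudocount of 50 CPM, began with S100a6, a calcium-binding protein, at 5289 ± 2488 CPM (SD over 9 barcodes) against 26.6 CPM. Tspan8, a tetraspanin, averaged 2221 ± 999 CPM and Erbb4, a neuregulin receptor, 1374 ± 526 CPM, against 5.95 and 10.5 CPM in proximal members. Each was found in 9 of 9. Of 8 general tubule genes, Epcam, Krt8, Krt18 and Pax8 had UMIs in 9 of 9. Cdh16, on the same list, had 0 UMIs in the barcodes with totals of 11342, 10571 and 11393 UMIs. The proliferation genes Mki67 and Top2a were found in 9 of 9, at means of 1115 and 742 CPM, and the histone gene Hist1h1b in 9 of 9. Spp1 was found in all 9, the chemokine Cxcl5 in 8 and the interferon-induced Ifit3 in 9. Gpx3 was found in 4 and Kap, Fxyd2 and Fbp1 in 0. Among other leading genes of the proximal members, Sult1d1, Chpt1, Gas2 and Igfbp7 were found in 9, while Akr1c21, Acsm2, Pdzk1 and Slc27a2 were found in 0. At least 1 late proximal marker was found in 8 of the 9, an early one in 3 and a middle one in 0. At least 1 marker of the thick ascending limb was found in 2 of the 9, of the distal convoluted tubule, principal cell and intercalated cell in 0, and the listed thin limb gene Bst1 in 9. They are called here by their leading genes only.

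These 9 barcodes were, by the median pair, closer to each other than proximal members of a library were. After thinning to 5000 UMIs, the counts of 2 such barcodes were compared over genes with 10 or more UMIs in the pair, leaving out mitochondrial genes and Gm42418, a ribosomal RNA-like transcript. The chi-square per degree of freedom, which is about 1 when 2 barcodes differ only by sampling, ran from 1.01 to 4.19 over 36 pairs, with a median of 1.70, and 14 pairs were under 1.5. For 47 pairs of proximal members within a library it ran from 2.77 to 20.8, with a median of 7.67, and 0 were under 1.5. The 69 remaining pairs within a library ran from 1.91 to 34.7, with a median of 7.69 and 0 under 1.5. The ranges overlapped. The barcode sequences themselves differed at 7 to 14 of 16 bases. In all libraries together, 12 barcodes had 8 or more of the 10 leading genes: 11 in knockout replicate 3, of which 9 were members, and 1 member of knockout replicate 1. Whether the 9 barcodes were 9 separate cells was not tested, and the injury shares and the fits across genes are given with and without them.

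**Figure D4:**
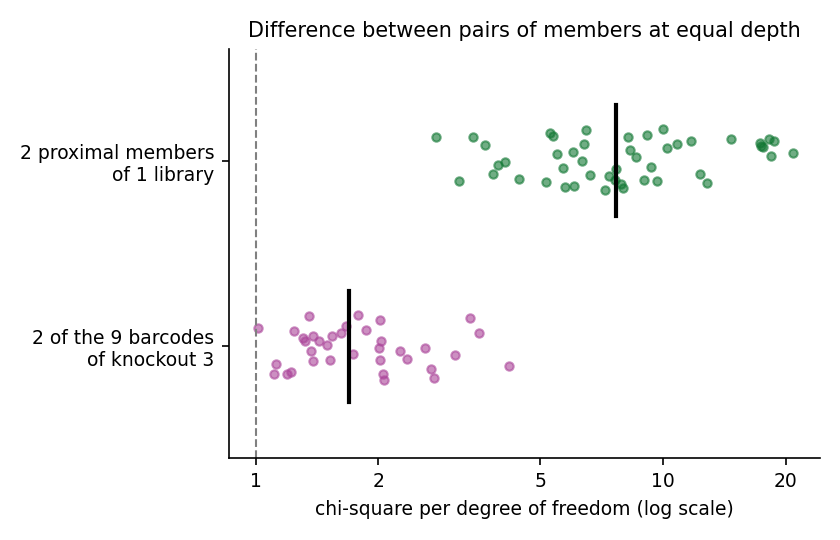
Chi-square per degree of freedom (x axis, log scale) between the UMI counts of 2 members of a library, each thinned to 5000 UMIs. Dots are pairs, black bars are medians and the dashed line at 1 is the value for sampling alone; pairs of the 9 barcodes have a median of 1.70 and pairs of proximal members 7.67.

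Single deep members carried the markers of other segments. A member of knockout replicate 1 with 63132 UMIs held all 189 Aqp2 UMIs found in the members, and that library had 1685 CPM of Hsd11b2 (the enzyme that shields the mineralocorticoid receptor from cortisol-like steroids) and 709.6 CPM of Aqp3, both principal cell genes. A member of knockout replicate 2 with 26066 UMIs held 129 of 130 Umod UMIs and all 265 UMIs of Slc12a1, the sodium-potassium-chloride cotransporter of the thick ascending limb. The same member held 276 of the 622 Erbb4 UMIs. Aqp2 and Slc12a1 had 0 UMIs in the control members. The deepest member of all, with 124589 UMIs, was a proximal member of control replicate 1 and held 248 of 578 Havcr1 UMIs.

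Among injury genes, Spp1 was the most widespread. It was found in 5 and 6 control members and in 5, 20 and 14 knockout members, at 1755 and 4229.5 CPM in controls and 5895, 14398 and 11283 CPM in knockouts. All 3 knockout libraries were above both controls. In Cd3e-positive cells Spp1 had a UMI in 1.66% to 2.92%. After each member was thinned to 1542 UMIs, which left out 7 shallower members, Spp1 was present in 40% and 50% of control members and in 71.4%, 60.9% and 100% of knockout members. The difference of 32.4 percentage points had an exact permutation p of 0.2 (adjusted p = 0.75 over the 5 injury genes), higher in 3 of 3 knockout libraries. Without the 9 barcodes the shares were the same, since the other 4 thinned members of knockout replicate 3 also had Spp1, and without that library the difference was 21.1 points. With 4 rule genes required it was 12.9 points and the groups overlapped. Without thinning the shares were 50% and 75% against 71.4%, 69.0% and 100%, and the groups overlapped. A single member gave 76.5% and 85.9% of the Spp1 UMIs in controls and 89.2%, 32.9% and 61.0% in knockouts. The log2 fold change of Spp1 was 1.70 ± 0.680 in all members (SE, edgeR adjusted p = 0.497) and 1.80 ± 0.996 in proximal members (SE, edgeR adjusted p = 0.998). In proximal members Spp1 stood at 1744 and 4332 CPM in controls and 1037, 15348 and 16881 CPM in knockouts, so the groups overlapped.

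Havcr1 was found in 17 members: 1 and 0 in controls and 1, 9 and 6 in knockouts. Its level was 1265 CPM in control replicate 1, all from 1 member, 0 in control replicate 2 and 6.82, 625 and 427 CPM in knockouts. Thinned shares were 10% and 0% in controls and 0%, 17.4% and 15.4% in knockouts, a difference of 5.93 points (exact permutation p = 0.6). Without thinning they were 10% and 0% against 14.3%, 31.0% and 42.9%, so that the groups did not overlap (24.4 points, exact permutation p = 0.2). They did not overlap either when thinned members needed 4 rule genes (27.3 points), but that setting was thinned by a new random draw. Knockout replicate 1 held 1 Havcr1 UMI in all. The main draw lost it (0 of 7 members) and the new draw kept it (1 of 5), so the rule and the draw cannot be told apart. With 1 library left out, the thinned difference ran from 0.925 points without control replicate 2 to 11.4 points without knockout replicate 1. Without the 9 barcodes it was 17.5 points, and the groups overlapped. In the 17 members with Havcr1 the median depth was 17890 UMIs, against 3557 in the 51 without. Spp1 was present in 17 of 17 and 33 of 51, and Sox9, a transcription factor of regenerating tubule, in 6 of 17 and 1 of 51. The part of depth in these shares was not tested.

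The other injury genes were sparse. Vcam1, an adhesion molecule of unrepaired proximal cells, had UMIs in 1 and 0 control members and 1, 5 and 2 knockout members. Lcn2 was found in 0 and 0 control members and 2, 3 and 2 knockout members, and Krt20 in 4 members in all. Without thinning the knockout libraries were above both controls for Vcam1 (10% and 0% against 14.3%, 17.2% and 14.3%) and for Lcn2 (0% and 0% against 28.6%, 10.3% and 14.3%; exact permutation p = 0.2 for each). After thinning the groups overlapped, with differences of 10.6 points for Vcam1 (exact permutation p = 0.6), 6.21 points for Lcn2 (p = 0.6, exact) and 0 points for Krt20, which no thinned member carried. Without knockout replicate 1 the thinned difference of Lcn2 was 2.17 points, and without knockout replicate 3 that of Vcam1 was 15.8. Clu, a secreted chaperone, was at 15.3 and 23.8 CPM in controls and 669, 72.6 and 78.2 CPM in knockouts, with 63.3% of the UMIs of knockout replicate 1 from 1 member. The groups did not overlap for Clu, and its log2 fold change was 3.62 ± 1.28 (SE, edgeR adjusted p = 0.451). With 2 rule genes enough for a member, Clu stood at 13.5 and 846 CPM in controls and 663, 935 and 76.2 CPM in knockouts, and the log2 fold change was 0.25. The groups also overlapped without the 9 barcodes, and without knockout replicate 1 the log2 fold change was 1.89.

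The test across genes asked which transcripts differed between knockout and control members. Counts were summed over the members of each library and fitted with edgeR's quasi-likelihood test. None of 4566 genes tested passed an adjusted p of 0.05 (0% called), the smallest adjusted p being 0.202, and 422 had an unadjusted p under 0.05, of which 237 were higher and 185 lower in knockouts. DESeq2 on the same counts called 23 genes (0.504% of 4566), 21 higher and 2 lower. The 21 include the rule gene Cdh6, whose values chose the members. For 1385 genes (30.3%) all knockout libraries lay on the same side of both controls, so that separation alone says little about any 1 gene. In the 50 proximal members alone, edgeR called 0 of 3202 genes (0%), with a smallest adjusted p of 0.998 and 83 at an unadjusted p under 0.05. Without the 9 barcodes of knockout replicate 3 it called 0 of 3497, with a smallest adjusted p of 0.814.

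The 6 named genes with higher values in knockouts did not pass edgeR's test. Of these, 5 had UMIs in all 9 barcodes without proximal rule genes, the exception being Sytl2 with 4. Erbb4 had no UMI in either control and stood at 396, 1051 and 753 CPM in knockouts, at least 68.4-fold above the 10.7 CPM that 3 counts over both controls would give. Its adjusted p was 0.202 (edgeR) and 9.24e-05 (DESeq2). Such bounds cover counting error in the controls only, not the spread between members or the choice of members. Epcam, an epithelial adhesion molecule, was at 0 in both controls and at 443.5, 94.7 and 384 CPM in knockouts, at least 28.7-fold higher (edgeR adjusted p = 0.416). Efna5, an ephrin, and Naaladl2 were also at 0 in controls and averaged 103 ± 18.5 and 174 ± 93.7 CPM in knockouts (SD, n = 3), at least 9.60-fold and 16.3-fold higher. A single member gave 93.8%, 92.3% and 22.2% of the Efna5 UMIs in knockout replicates 1, 2 and 3. These shares were 50%, 42.9% and 23.2% for Naaladl2, 56.9%, 82.9% and 29.4% for Erbb4 and 87.7%, 40% and 35.6% for Epcam. They were 77.6%, 86.4% and 18.6% for Stox2 and 59.6%, 44.6% and 63.0% for Sytl2. Stox2 reached log2 fold changes of 4.82 ± 0.903 and Sytl2, which tethers secretory vesicles, 4.86 ± 0.848 (SE; edgeR adjusted p = 0.416 and 0.378).

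These differences moved with the choice of members. Without the 9 barcodes the lower bounds were 48.9-fold for Erbb4, 17.0-fold for Epcam, 5.95-fold for Efna5 and 9.28-fold for Naaladl2, and in knockout replicate 3 Erbb4 was then at 124 CPM, Epcam at 6.88 CPM and Efna5 and Naaladl2 at 0. Stox2 had a log2 fold change of 4.58 without them. When 2 rule genes were enough for a member, Erbb4 was no longer at 0 in controls: it stood at 4.49 and 338 CPM, against 392, 880 and 746 CPM in knockouts. The fitted log2 fold change of Erbb4 was then 1.88, that of Epcam 4.49, of Efna5 3.32, of Stox2 2.07 and of Sytl2 2.84. Naaladl2 stayed at 0 in both controls under that rule and was at least 27.5-fold higher in knockouts.

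Of the 21 genes DESeq2 called higher, 19 had UMIs in at least 8 of the 9 barcodes of knockout replicate 3, and 12 had no UMI in any control member. Among them were Tspan8, Mal, Dsp (desmoplakin of cell junctions), Cd24a and Ehf, an epithelial transcription factor. In proximal members Erbb4 was found in 3 of 34 knockout and 0 of 16 control members, and Efna5 in 0 of both. Of these 34 knockout members, 26 came from replicate 2. Only 6 of the 23 DESeq2 calls could be tested in the proximal members. All 6 had the same direction there and an unadjusted edgeR p under 0.05, and 0 passed after adjustment. Cdh6 is among the 6 as well, although the rule used its values. The proximal members gave 98.0% and 97.6% of the control member UMIs, so both fits rest on nearly the same control counts.

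**Figure D5:**
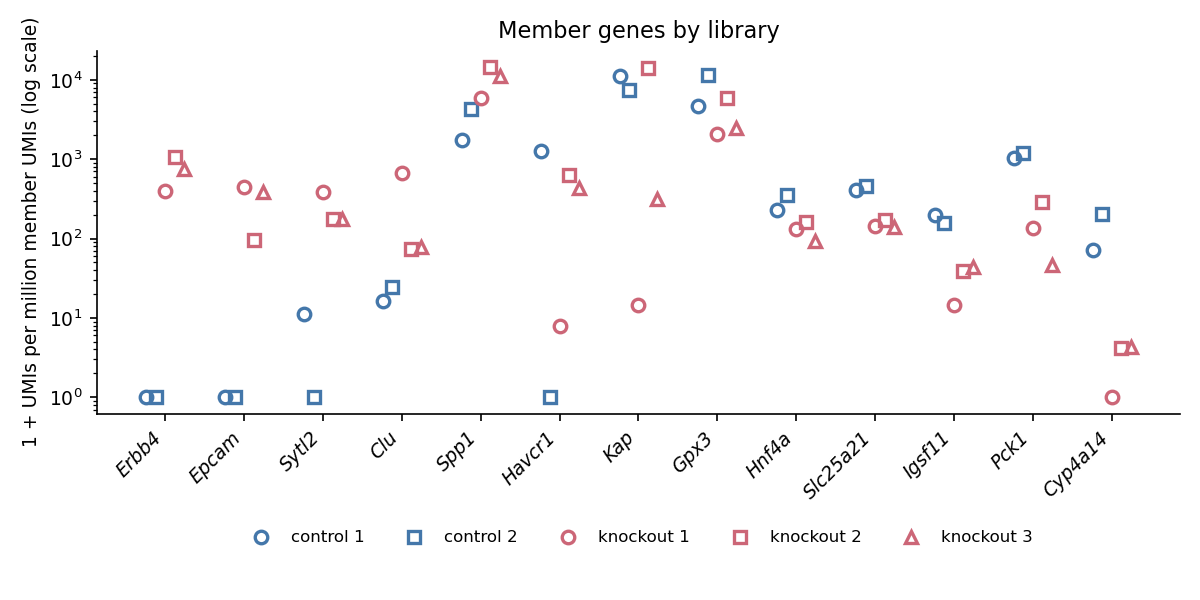
Level of 13 genes summed over the members of each library, as 1 + CPM (y axis, log scale). Blue marks are control and red marks knockout libraries; Erbb4 and Epcam are at 0 UMIs in both controls, Cyp4a14, Igsf11 and Pck1 are lower in all 3 knockouts, and Kap and Havcr1 overlap.

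Among genes with lower values in knockout members, Cyp4a14, which hydroxylates fatty acids, was at 71.4 and 203 CPM in controls and 0, 3.16 and 3.26 CPM in knockouts, a log2 fold change of -5.49 ± 0.837 (SE, edgeR adjusted p = 0.251; DESeq2 adjusted p = 0.00723). Its UMIs came from few members: 5 of 18 in controls, with 85.7% and 88.2% from 1 member each, and 2 of 50 in knockouts. Pck1, the rate-limiting enzyme of gluconeogenesis, was at 1020 and 1191 CPM in controls and 136.5, 284 and 45.6 CPM in knockouts. Its log2 fold change was -2.93 ± 0.710 (SE, edgeR adjusted p = 0.417; DESeq2 adjusted p = 0.0354). Every knockout library was below both controls for these genes, which for Cyp4a14 was a condition for naming it. Both differences were smaller when barcodes with more mitochondrial UMIs were let in: with a limit of 20% the log2 fold change was -2.21 for Cyp4a14 and -2.05 for Pck1, and with no limit -1.97 and -1.81. Cyp4a14 was then at 62.0 and 215 CPM in controls and 48.0, 39.7 and 16.9 CPM in knockouts.

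Within the proximal members Pck1 was found in 14 of 16 control and 18 of 34 knockout members, with a log2 fold change of -1.78 ± 0.692 (SE, edgeR adjusted p = 0.998, unadjusted p = 0.0219). Cyp4a14 was found in 5 of 16 and 2 of 34, with -4.58 ± 0.967 (SE, edgeR adjusted p = 0.998, unadjusted p = 0.000314). Neither passed the adjusted threshold. The counts of members pool libraries, and 26 of the 34 knockout members came from replicate 2. Members were not thinned for these counts, and the part of depth in them was not tested.

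The other 5 named genes that were lower also had all knockout libraries below both controls, which was a condition for naming them. Slc25a21, a mitochondrial carrier of 2-oxoadipate, was the steadiest within groups, at 413 and 453 CPM in controls and 143, 170.4 and 140.1 CPM in knockouts (log2 fold change -1.65 ± 0.393, SE). The immunoglobulin-family adhesion protein Igsf11 was at 199 and 155 CPM in controls and 13.6 to 42.4 CPM in knockouts. Gsta3, a glutathione transferase, was at 133 and 119 CPM against 16.3 to 44.2 CPM. Gna12, a G protein subunit, and Unc5c, a netrin receptor, had log2 fold changes of -1.85 ± 0.441 and -3.45 ± 0.801 (SE). The edgeR adjusted p of Igsf11 was 0.416 and that of the other 4 was 0.417. A single member gave 71.6% and 52.6% of the Slc25a21 UMIs in controls and 76.2%, 22.2% and 44.2% in knockouts. In controls these shares were 59.0% and 76.9% for Igsf11 and 84.2% and 85.7% for Unc5c. For Gna12 they were 23.8% and 63.6%, and for Gsta3 69.2% and 100%. In proximal members alone the groups overlapped for Gna12 and Gsta3 but not for Slc25a21, Igsf11 and Unc5c.

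Hnf4a was lower in all 3 knockout libraries when all members were summed, at 229.5 and 357 CPM in controls and 129.6, 161 and 91.2 CPM in knockouts (log2 fold change -1.32 ± 0.447, SE, edgeR adjusted p = 0.437). In the proximal members alone its log2 fold change was 0.012 ± 0.704 (SE, edgeR adjusted p = 0.998). For Gpx3 it went from -1.31 ± 0.675 in all members (SE, edgeR adjusted p = 0.579) to -0.29 ± 0.675 in the proximal ones (SE, edgeR adjusted p = 0.998). Its summed level was 4723 and 11485 CPM in controls and 2047, 5927 and 2492 CPM in knockouts.

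Gene lists are described by their counts, since 0 genes of any list passed edgeR's threshold. Over all 4566 genes the median log2 fold change was 0.0078, with 2305 above 0 and 2261 below. Of 23 tested brush border and basolateral transporters, 1 was above 0 and 22 below, with a median of -1.17. Of 24 fatty acid oxidation genes, 2 were above and 22 below (median -1.14), and of 6 gluconeogenesis and fructose genes 0 were above and 6 below (median -1.87). Of 17 glutathione, metal and redox genes, 1 was above and 16 below (median -1.06). The 12 tested injury genes had 9 above and 3 below (median 2.14), and the 8 general tubule genes 8 above and 0 below (median 1.15).

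In the proximal members alone these medians came nearer to 0, where that of all 3202 genes was -0.081. Transporters had 7 genes above and 16 below (median -0.37), fatty acid oxidation 4 and 19 (median -0.46) and gluconeogenesis and fructose 1 and 5 (median -0.79). Injury genes had 4 above and 4 below (median -0.18) and general tubule genes 3 above and 3 below (median -0.024). Knockout replicate 1 entered this fit with 3 members and 15429 UMIs.

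Summed levels of the lists were also compared by library. Gluconeogenesis and fructose genes summed to 4029.7 and 8626 CPM in controls and 1795, 4018 and 2639 CPM in knockouts. Amino acid metabolism genes summed to 2882 and 5087 CPM against 1603, 1827 and 2274 CPM, and injury genes to 5397 and 4647 CPM against 8659, 17629.7 and 17463 CPM. That separation was not seen without Spp1: the other injury genes summed to 3642 and 417 CPM in controls and 2763, 3232 and 6181 CPM in knockouts, and the groups overlapped. Glycolysis genes, at 2520 and 2728 CPM against 2818, 2525 and 3196 CPM, overlapped between groups, as did fatty acid oxidation genes. Separation was not particular to the lists above. Heat shock genes ran from 3892 to 4182 CPM in controls and 2600 to 3151 CPM in knockouts. Cell death genes ran from 286 to 357 CPM in controls and 360 to 457 CPM in knockouts.

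Signals by which tubule cells are known to reach immune cells were found in a minority of members. Il33, the alarmin that binds ST2, had 4 UMIs in 4 members: 1 in control replicate 1, 1 in knockout replicate 1 and 2 in knockout replicate 2. Il34, a ligand of the macrophage receptor CSF1R, was found in 22 members, and 99.4% of its UMIs in control replicate 1 (847 CPM) came from 1 member. The other control had 23.8 CPM and the knockouts 75.1, 104 and 107.5 CPM. Cxcl16, a chemokine for T cells that was picked out here after its values were seen, was found in 21 members, at 25.5 and 35.7 CPM in controls and 81.9, 170 and 65.2 CPM in knockouts, and the groups did not overlap (log2 fold change 1.72 ± 0.671, SE, edgeR adjusted p = 0.488). In the proximal members its log2 fold change was 2.23 ± 0.693 (SE, edgeR adjusted p = 0.998). From 4.85% to 7.51% of Cd3e-positive cells also had a UMI of it. Csf1 was found in 10 members and the monocyte chemokine Ccl2 in 2. The neutrophil chemokine Cxcl1 was found in 8, of which 5 were among the 9 barcodes of knockout replicate 3. Cd74, the invariant chain of MHC class II, was found in 9 members, with 470.3 CPM in knockout replicate 2 and 6.82 to 40.8 CPM elsewhere, but 21.7% to 36.4% of Cd3e-positive cells also had a UMI of it. Cdkn1a, the cell cycle inhibitor p21, was found in 15 members, 9 of them in knockout replicate 3. Egf was found in 1 member.

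The proliferation gene Mki67 was seen in few members outside the 9 barcodes. Cell cycle genes as a list of 10 were more widespread. At least 1 of them had a UMI in 43 members, of which 28 were proximal and 9 were the 9 barcodes. Mki67 was found in 1 member of control replicate 2, 4 of knockout replicate 2 and 9 of knockout replicate 3, which are the 9 barcodes. In control replicate 2 that member gave all 441 CPM, and in knockout replicate 2 1 member gave 96.2% of 249 CPM. The groups overlapped, with a log2 fold change of 0.26 ± 1.61 (SE, edgeR adjusted p = 0.974). Mki67 had a UMI in 25.4% to 39.3% of the Cd3e-positive cells around them.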

How the data were processed

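UMI counts per gene and barcode were used as the authors deposited them, 1 matrix for each of 5 libraries. The extraction protocol in the labels names Cell Ranger, and the submitters' processing notes list Cell Ranger 8.0, Seurat 5.1.0 and the build mm10. Doublets were not called. The members and gene lists were chosen with earlier results of these data known. Cells are not replicates, so counts were summed over members per library, and p-values measure the spread between libraries. edgeR 4.0.16 (TMM factors, filterByExpr, quasi-likelihood test, Benjamini-Hochberg over all genes tested) was the main test, and DESeq2 1.42.0 an alternative. SE is the absolute log2 fold change over the square root of F. CPM values scale a library's summed member UMIs to 1000000. Shares were compared with an exact permutation test. Scripts were tested on simulated data with 2 settings of dispersion, the spread between libraries beyond counting error. At 0.1 edgeR called 85 of 86 genes changed by a log2 fold of 3, with 4 false calls. At 1 it called 0 of 71, so with such a spread 0 calls would not show that no gene changed. The common dispersion of the real fit was 0.173. The simulation gave every gene the same dispersion and did not model sums dominated by single members. It therefore does not show which changes the real fit could find. Named genes were, in each direction, up to 12 that passed, filled to 6 by smallest p. All of these had to have libraries of the groups that did not overlap, so their separation is not a result. Left out were rule genes, ribosomal, mitochondrial, sex-linked and unnamed genes and markers of other cell types. A fixed list of tubule genes was named as well, without that condition. Alternatives changed the member rule, filters, scaling, depth, replicate block and libraries. The planned test within libraries of members with and without Havcr1 was not run because no library had 10 on each side, so these members are only described.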

Additional observations from a re-analysis of the deposited data

How the results depend on the processing

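The mean share of members was higher in knockouts under all 16 alternatives tried, and the groups stayed apart under 13. These 13 include the 5 that left out a library, where groups already apart could not come to overlap. With 1 library left out, the difference ran from 0.116 to 0.174 percentage points. Knockout replicate 1 was below both controls in proximal members (0.0707% against 0.0949% and 0.0776%). The same held after thinning to 2000 UMIs (0.0768% against 0.120% and 0.0971%). Of 23 other fits across genes, 19 also called 0 genes, among them all 5 that left out a library. DESeq2 called 23 genes, edgeR without a filter on low counts 293 and edgeR with each member thinned to 1542 UMIs 3 (S100a6, Pck1 and Syne2) of 183 tested; the cause was not tested. With the replicate number as a block edgeR called 72 genes, but the labels do not pair the libraries and only replicates 1 and 2 occur in both groups, so this pairing rests on a shared number.

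Over 10 alternatives each, the difference in the share of members with an injury gene ran from 0.925 to 30.1 points for Havcr1, 4.30 to 15.8 for Vcam1, 12.9 to 40.7 for Spp1, 2.17 to 17.7 for Lcn2 and 0 to 3.29 for Krt20. The settings with 2 or 4 rule genes were thinned by new random draws, so these ranges also hold differences between draws. Log2 fold changes ranged from 1.88 to 10.64 for Erbb4, 3.32 to 7.67 for Efna5, 4.49 to 9.17 for Epcam, 0.25 to 4.10 for Clu, -7.95 to -1.97 for Cyp4a14, -5.04 to -1.78 for Pck1, -4.45 to -1.40 for Unc5c and -1.80 to -0.50 for Slc25a21.

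The 27 single genes with a fold change kept their direction in 19 cases. Log2 fold changes turned positive for Havcr1 under 5% mitochondrial UMIs (7.55), without members with Ptprc (8.97) and without the deepest member (9.05), and ran from -2.00 to 9.28 with 1 library left out. For Il34 they were 0.94 under 5% mitochondrial UMIs and 2.10 without the deepest member, and from -3.35 to 1.94 with 1 library left out. In proximal members alone they were 0.012 for Hnf4a and 0.050 for Slc5a12, and Slc5a12 was 0.34 under 20% mitochondrial UMIs and 0.39 without that limit. Mki67 was -0.82 with the replicate block, -1.01 with 4 or more rule genes, -0.17 and -0.20 with the looser mitochondrial limits, -0.56 in proximal members and -1.16 without the 9 barcodes. With 1 library left out, ranges crossing 0 were -0.81 to 8.95 for Mki67, -3.01 to 5.77 for Cxcl1, -2.18 to 0.31 for Slc5a2 and -2.62 to 1.22 for Slc7a13. Leaving out a control leaves 1 library in that group, assumed to vary like the others. The planned test within libraries of members with and without Havcr1, and its alternatives, were not run, because no library had 10 members on each side. The alternatives on proximal members, the 9 barcodes, the deepest member, thinned members and the injury sum without Spp1 were chosen after seeing the data. Counting error alone allows a gene at 0 in both controls a level of up to 10.7 CPM.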
